A study of Mus musculus with 4 samples.

Results

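This account follows 42 genes of glycolysis and of the hypoxia response through RNA from tumour-infiltrating dendritic cells (DCs) and CD3+ T cells. The genes were chosen by symbol, and all 42 are listed among the 21959 genes of the deposited tables. Of these, 40 reached 20 counts in at least 1 library, against 11986 such genes in the whole series, while Eno2 and Adm were at 0 counts in all 4 libraries. The members fall into 18 glycolytic enzymes, 4 glucose and lactate transporters, 3 regulators of glycolysis, 4 genes for the hypoxia-inducible factor (HIF) and its prolyl hydroxylases, and 13 other hypoxia targets. Mice carrying MC38 tumours, a transplantable mouse colon carcinoma line, received X-rays with O-IMDQ (X-Ray+O-IMDQ) or PBS as the control. O-IMDQ is described in the series as a prodrug activated by radiotherapy. Cells were taken 72 h after the second treatment. The 4 libraries are DCs after X-Ray+O-IMDQ, DCs after PBS, T cells after X-Ray+O-IMDQ and T cells after PBS, with 1 library in each group. The first of each pair is called treated here. Mouse strain, age, dose, the sort used and how many animals went into a library are not given in these sources. X-rays alone and O-IMDQ alone are not among these groups, so the contributions of radiation and of the compound cannot be told apart.

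Glycolysis breaks glucose down to pyruvate, and lactate dehydrogenase turns pyruvate into lactate, which monocarboxylate transporters carry out of the cell. HIF is a dimer of an oxygen-sensitive subunit, HIF-1α encoded by Hif1a, and a stable subunit encoded by Arnt. Prolyl hydroxylases of the Egln family mark the oxygen-sensitive subunit for destruction when oxygen is present, and at low oxygen the dimer accumulates and binds short DNA elements with the core ACGTG or GCGTG beside its target genes. Many genes of glycolysis are such targets, as are genes for blood vessel growth, removal of mitochondria and collagen modification. Activated DCs and activated T cells are both known to raise glycolysis.

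The promoter sequences of 5 members are shown because they carry the core element beside genes called in opposite directions in treated DCs. Each is the stretch of 250 bases before the gene's start, from RefSeq on build GRCm38.p6, written 5′ to 3′ on the gene's strand, and the capitals mark each match to ACGTG or GCGTG on either strand (CACGT and CACGC are the same letters on the opposite strand). These 5 were picked with their values in view. Ldha, Pgk1 and Pgam1 were lower in treated DCs, Pgk1 close to the threshold, and Hk2 and Higd1a were higher.
Ldha chr7:46845554-46845803 (+ strand): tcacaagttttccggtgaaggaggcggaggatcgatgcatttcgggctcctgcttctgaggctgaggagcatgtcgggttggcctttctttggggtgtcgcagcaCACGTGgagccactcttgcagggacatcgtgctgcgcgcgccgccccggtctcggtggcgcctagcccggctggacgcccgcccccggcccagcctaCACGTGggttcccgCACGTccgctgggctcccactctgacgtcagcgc
Pgk1 chrX:106186850-106187099 (+ strand): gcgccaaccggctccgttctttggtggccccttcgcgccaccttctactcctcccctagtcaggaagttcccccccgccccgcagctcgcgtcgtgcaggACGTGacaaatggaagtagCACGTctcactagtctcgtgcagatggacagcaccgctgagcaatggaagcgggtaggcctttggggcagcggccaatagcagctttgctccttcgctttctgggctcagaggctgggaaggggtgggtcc
Pgam1 chr19:41911621-41911870 (+ strand): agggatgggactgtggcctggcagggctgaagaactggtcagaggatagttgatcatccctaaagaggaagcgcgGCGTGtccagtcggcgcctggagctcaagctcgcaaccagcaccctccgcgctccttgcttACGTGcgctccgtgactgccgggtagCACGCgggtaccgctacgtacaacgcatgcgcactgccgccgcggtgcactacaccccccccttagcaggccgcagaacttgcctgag
Hk2 chr6:82774455-82774704 (- strand): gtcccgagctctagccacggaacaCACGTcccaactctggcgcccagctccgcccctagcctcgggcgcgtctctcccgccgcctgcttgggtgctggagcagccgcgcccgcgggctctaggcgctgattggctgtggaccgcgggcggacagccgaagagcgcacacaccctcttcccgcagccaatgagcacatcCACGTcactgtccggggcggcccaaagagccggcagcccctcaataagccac
Higd1a chr9:121857797-121858046 (- strand): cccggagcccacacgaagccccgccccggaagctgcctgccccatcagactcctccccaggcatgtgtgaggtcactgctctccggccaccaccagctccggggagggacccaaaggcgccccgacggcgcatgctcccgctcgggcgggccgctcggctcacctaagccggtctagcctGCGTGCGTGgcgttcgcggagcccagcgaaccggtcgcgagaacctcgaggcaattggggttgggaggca

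The window of Ldha held 5 matches, of which 4 lie in overlapping pairs because CACGTG reads the same on both strands. Pgam1 held 3 matches, and Pgk1, Hk2 and Higd1a held 2 each. The most upstream window of each gene was used. Windows were found for 39 of the 42 members, all except Slc2a3, Bnip3l and Ndrg1. A match was present in 31 of the 39 windows (79.5%), against 10442 of 27025 windows of all RefSeq genes (38.6%) and 57.5% of the 8265 windows of genes tested in DCs. Among the enzymes 12 of 18 windows had a match (66.7%), and among the other hypoxia targets 9 of 11 (81.8%). In DCs, 14 of 18 members that were lower after treatment had a match (77.8%), and 9 of 10 that were higher (90.0%). Of members called in neither direction 7 of 9 had a match (77.8%). These are matches of letters, not measured binding.

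The treated DC library held 14056428 counts and the PBS DC library 23797357 counts, and the treated T library held 18463944 counts and the PBS T library 18649824 counts. Counts were scaled with TMM (trimmed mean of M-values) and are given as CPM, counts for each 1000000 scaled counts, and a count of 0 allows up to 3 counts, which is 0.263 CPM in treated DCs, 0.151 in PBS DCs, 0.132 in treated T cells and 0.134 in PBS T cells. A gene was tested with at least 20 counts in either library of a pair. A ratio with 1 library at 0 takes 3 counts for the 0 and is called a bound. Its value leaves out counting error in the other library. A call of higher or lower needed a 2-fold difference and an exact conditional binomial (Clopper-Pearson) 95% interval of the log2 ratio, the counting interval, that left out 0. With 1 library matched to each group, no replicate check was made, every difference is between libraries, and no p-value can be given. The PBS libraries were matched by the library number 1 in the sample descriptions, while the sample titles number them 2. A further column set numbered 2 in each table has the PBS form of name, and it was not used, so if the titles were right every PBS value would come from another library. Intervals and floors cover counting error only, since reads from PCR without molecular identifiers cannot be taken as separate molecules. In bulk RNA, fewer cells of a type and less RNA per cell cannot be told apart.

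Lineage markers matched the labelled cell types in part. For the calls below, treated against PBS, 30% of all genes tested in DCs were higher and 42% lower. In T cells these shares were 18.3% and 25.4%. T cell markers summed to 9257 CPM in treated T cells and 9584 CPM in PBS T cells, and to 95.8 CPM in treated DCs and 81.5 CPM in PBS DCs, with Cd3e, Cd247 and Cd4 at 0 in both DC libraries. The T libraries were not alike in every marker. Of 8 T cell markers tested in T cells only Cd4 was called, higher at 252 counts in treated T cells and 17 in PBS T cells. Of 4 NK cell markers tested there, Gzma and Eomes were higher and Klrb1c lower (0 counts in treated T cells and 140 in PBS T cells). Of 7 DC markers tested there, Xcr1 and Cd209a were higher and Zbtb46 and Flt3 lower. Of the 4 T cell markers tested in DCs, Cd3d (812 counts in treated DCs and 434 in PBS DCs) and Cd5 (278 in treated DCs and 1 in PBS DCs) were higher, and Cd3g (1 in treated DCs and 576 in PBS DCs) and Lck (0 in treated DCs and 607 in PBS DCs) lower. Conventional DC markers summed to 10030 CPM in treated DCs and 72420 CPM in PBS DCs, but most of that was H2-Ab1 and Cd74. Of the 8 DC markers 3 were higher in treated DCs, namely Zbtb46 (57 counts in treated DCs and 9 in PBS DCs), Flt3 (69 in treated DCs and 16 in PBS DCs) and Clec9a (952 in treated DCs and 154 in PBS DCs). Cd209a (329 counts in treated DCs and 9441 in PBS DCs), H2-Ab1 and Cd74 were lower, while Itgax (3547 in treated DCs and 3982 in PBS DCs) and Xcr1 (152 in treated DCs and 213 in PBS DCs) were not called. Against T cells, 8 of 8 DC markers were higher in treated DCs and 6 of 8 in PBS DCs (all genes 30.5% and 25.6%). After PBS, Zbtb46 was lower in DCs (9 counts, and 120 in T cells) and Flt3 was not called (16 in DCs and 24 in T cells). Macrophage markers were higher in DCs than in T cells for 10 of 10 under either treatment. Of 10 macrophage markers 5 were lower (50%) and 0 higher in treated DCs, and the list summed to 2526 CPM in treated DCs and 9574 CPM in PBS DCs. The lower ones were C1qa, C1qb, C1qc, Apoe and Cd68. Adgre1, Csf1r, Mrc1, Fcgr1 and Mertk were not called, with log2 ratios between -0.09 and 0.26. Neutrophil markers summed to 113 CPM in treated DCs and 26.5 CPM in PBS DCs, with S100a8 and Cxcr2 higher and Csf3r lower, and S100a9, Retnlg, Mmp9 and Ly6g at 0 in both DC libraries. NK cell markers summed to 92.6 CPM in treated DCs and 5.43 CPM in PBS DCs, with Gzma and Eomes higher, and Ncr1, Klra8 and Prf1 at 0 in both. Monocyte markers summed to 963.5 CPM in treated DCs and 720.3 CPM in PBS DCs, with Plac8 higher, Chil3 and F13a1 lower and 3 not called. Fibroblast markers summed to 198 CPM in treated DCs and 147 CPM in PBS DCs, with Col1a1, Col1a2 and Col3a1 higher and Dcn lower. Erythroid markers summed to 474 CPM in treated DCs and 277 CPM in PBS DCs, with Hba-a2 higher, Hbb-bt lower and 2 not called. Endothelial markers summed to 29.0 CPM in treated DCs and 61.2 CPM in PBS DCs, with Vwf higher and Pecam1 lower. B cell markers summed to 15.5 CPM in treated DCs and 49.6 CPM in PBS DCs, from Cd79b alone, which was called lower. The MC38 epithelial list summed to 68.1 CPM in treated DCs and 44.3 CPM in PBS DCs, with Krt8, Krt19 and Cldn4 at 0 in all 4 libraries. Its 2 genes tested in DCs parted. Epcam was lower (0 counts in treated DCs and 219 in PBS DCs), and Cdh1 was higher (68.1 CPM in treated DCs and 33.3 CPM in PBS DCs). The DC libraries also differed across the transcriptome: all 12 mitochondrially encoded genes tested were higher after treatment, as were 49 of 77 cytosolic ribosomal protein genes. Of 7856 genes with at least 100 counts in PBS DCs, 942 (12%) were at 0 in treated DCs, against 213 of 6475 (3.29%) in the other direction. The part of these differences in the results below was not tested.

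In DCs, glycolytic enzyme transcripts were mostly lower after treatment, whereas the hexokinase that starts the pathway, its regulators Pfkfb3 and Pdk1, and Hif1a were higher. The 18 enzymes together took 0.427% of all counts in treated DCs (exact binomial 95% interval 0.423 to 0.430) and 1.54% in PBS DCs (1.54 to 1.55). The 13 other hypoxia targets took 0.316% in treated DCs (0.313 to 0.319) and 0.115% in PBS DCs (0.113 to 0.116). That second share was set by Higd1a alone, because without it the remaining targets took 0.0483% in treated DCs and 0.0602% in PBS DCs. In T cells the enzymes took 0.937% of counts after treatment and 0.982% after PBS.

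**Figure D1:**
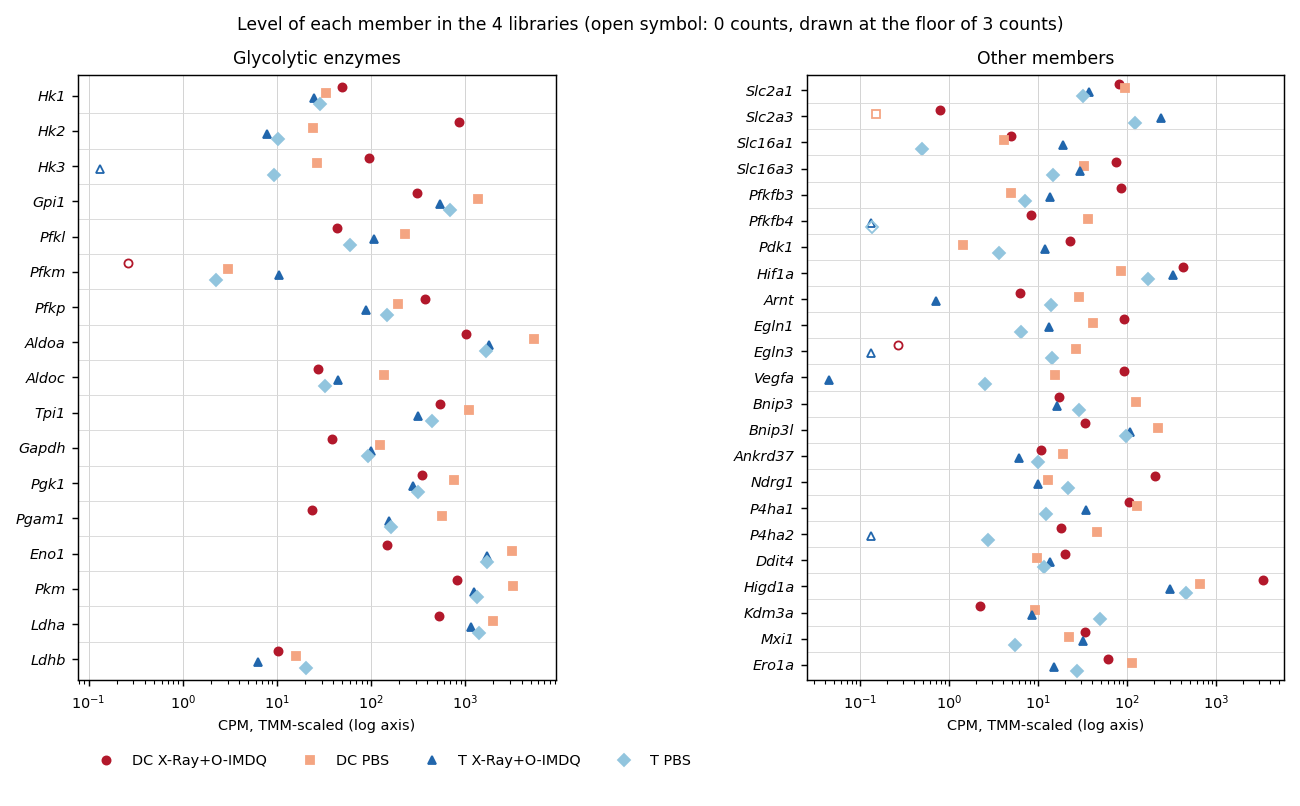
Level of the 40 members with at least 20 counts in any library, as TMM-scaled CPM on a log axis, with 1 symbol per library and open symbols for libraries with 0 counts, drawn at the floor of 3 counts. Most enzyme symbols of treated DCs lie left of those of PBS DCs, while Hk2 lies far to the right, and the symbols of treated and PBS T cells nearly coincide for most enzymes.

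Across all 10316 genes tested in DCs, 30% were called higher and 42% lower (72% in either direction), with a median log2 ratio of -0.37. Of the 39 members tested, 11 were higher and 19 lower (median -0.90), which is near the background on the higher side and moderately above it on the lower side. The 17 enzymes tested stood further out, with 2 higher, 12 lower and 3 neither, and a median of -1.92. The 12 other hypoxia targets split evenly, with 4 higher, 4 lower and 4 neither, and a median of -0.57. The enzyme median was therefore 1.36 log2 units below that of the other targets, written -1.36 as enzymes minus targets. Corrected for gene length and GC content, a setting added after the data were seen, the same difference was -0.90.

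Hexokinase, which traps glucose in the cell as glucose 6-phosphate, ran against the rest of the pathway in 2 of its isoforms. Hk2, the inducible isoform (ENSMUSG00000000628, chromosome 6, 82702006 to 82751435 on GRCm39), had 874 CPM in treated DCs and 24.6 CPM in PBS DCs. It was 35.6-fold higher (log2 ratio 5.15, counting interval 5.02 to 5.29), the largest ratio among the members in DCs. Hk3, an isoform of myeloid cells, had 96.1 CPM in treated DCs and 26.9 CPM in PBS DCs and was 3.57-fold higher (log2 ratio 1.83). Hk1, the housekeeping isoform, had 48.8 CPM in treated DCs and 33.5 CPM in PBS DCs, which was under 2-fold apart (log2 ratio 0.54). Ranked by FPKM, which allows comparison between genes of different length, Hk2 stood 6th of the 18 enzymes in treated DCs at 118.6 FPKM and 15th in PBS DCs at 3.44 FPKM.

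Most of the next steps were lower. Gpi1, the isomerase after hexokinase, had 309 CPM in treated DCs and 1368 CPM in PBS DCs and was 4.43-fold lower. Phosphofructokinase commits sugar to glycolysis and has liver, muscle and platelet isoforms. Pfkl, the liver isoform, had 43.3 CPM in treated DCs and 232 CPM in PBS DCs and was 5.35-fold lower (log2 ratio -2.42). Pfkm, the muscle isoform, had 0 counts in treated DCs and 60 counts in PBS DCs. It was 11.5-fold lower with the treated library set to the floor, and its counting interval ended at a log2 ratio of -3.18. Pfkp, the platelet isoform, ran the other way with 378 CPM in treated DCs and 195 CPM in PBS DCs, a log2 ratio of 0.95 just under the 2-fold line, which it passed with DESeq2 size factors (1.0) and when all ratios were centred on the median gene (1.33). The aldolases, which split the sugar, were lower together: Aldoa had 1034 CPM in treated DCs and 5416 CPM in PBS DCs (5.24-fold lower), and Aldoc had 27.5 CPM in treated DCs and 139 CPM in PBS DCs (5.06-fold lower).

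Among the enzymes called in DCs, Tpi1 and Pgk1 were closest to the threshold. Tpi1, which interconverts the triose phosphates, had 537 CPM in treated DCs and 1103 CPM in PBS DCs (log2 ratio -1.04). Its call at 2-fold was lost under 5 settings, among them DESeq2 size factors (-0.99) and correction for gene length (-0.29), and corrected for GC content and length it turned to 0.05. Pgk1, the kinase that yields the first ATP, had 353 CPM in treated DCs and 772 CPM in PBS DCs (log2 ratio -1.13), and its call was lost on centring (-0.76) and on correction for length (-0.30) or for GC content and length (-0.37). Gapdh, the dehydrogenase between them, had 38.5 CPM in treated DCs and 125 CPM in PBS DCs and was 3.25-fold lower. Per length Gapdh was low beside its neighbours in the pathway, at 7.54 FPKM in treated DCs and 25.2 FPKM in PBS DCs, against 128 FPKM in treated DCs and 287 FPKM in PBS DCs for Pgk1.

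Among the enzymes with counts in both DC libraries, the furthest drops were at the mutase and enolase steps. Pfkm, known only by its bound, cannot be placed in that order. Pgam1 (ENSMUSG00000011752, chromosome 19, 41900362 to 41907099 on GRCm39), the phosphoglycerate mutase, had 23.8 CPM in treated DCs and 571 CPM in PBS DCs. It was 24-fold lower (log2 ratio -4.58, counting interval -4.76 to -4.41). Eno1 (ENSMUSG00000063524, chromosome 4, 150321178 to 150333336 on GRCm39), the main enolase, had 148 CPM in treated DCs and 3181 CPM in PBS DCs. It was 21.5-fold lower (log2 ratio -4.43, counting interval -4.50 to -4.36). Eno1b, a near-identical copy of Eno1, moved with it at 0.878 CPM in treated DCs and 67.6 CPM in PBS DCs. How the counting divided reads between the pair is not stated, so the level of each is uncertain. Adding the counts of the listed near copies to their parent genes changed no call among the members. Of 12 near copies named 8 are listed, and only 2, Eno1b and Pgam2, had 20 or more counts in any library. The step therefore cannot show how shared reads were counted for Gapdh, Pgk1, Tpi1, Aldoa or Ldha.

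The last steps were lower as well. Pkm, pyruvate kinase, had 817 CPM in treated DCs and 3273 CPM in PBS DCs and was 4.01-fold lower. Ldha (ENSMUSG00000063229, chromosome 7, 46490899 to 46505051 on GRCm39), the lactate-forming dehydrogenase whose promoter is shown above, had 529 CPM in treated DCs and 2007 CPM in PBS DCs and was 3.79-fold lower (log2 ratio -1.92). Ldhb, which favours the reverse reaction, had 10.4 CPM in treated DCs and 15.9 CPM in PBS DCs, a log2 ratio of -0.62 that was not called. By FPKM the leading enzymes in treated DCs were Aldoa at 287.7, Tpi1 at 158, Pkm at 132, Ldha at 130 and Pgk1 at 128 FPKM. In PBS DCs they were Aldoa at 1554, Pkm at 547, Ldha at 506, Eno1 at 494 and Tpi1 at 335 FPKM.

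Within enzyme families the isoform make-up of DCs shifted. By FPKM, Hk2 made up 82.2% of hexokinase in treated DCs and 26.8% in PBS DCs, while Hk3 made up 14.6% in treated DCs and 47.6% in PBS DCs. Pfkp made up 81.3% of phosphofructokinase in treated DCs and 29.1% in PBS DCs, and Pfkl 18.7% in treated DCs and 69.2% in PBS DCs. Aldolase and lactate dehydrogenase kept 1 dominant isoform: Aldoa was at 97.7% in treated DCs and 97.8% in PBS DCs, and Ldha at 96.0% in treated DCs and 98.4% in PBS DCs. These shares compare isoforms within a library, so the scaling between libraries does not enter them. The isoforms differ in length, and the shares were not recomputed with the corrections for length or GC content.

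**Figure D2:**
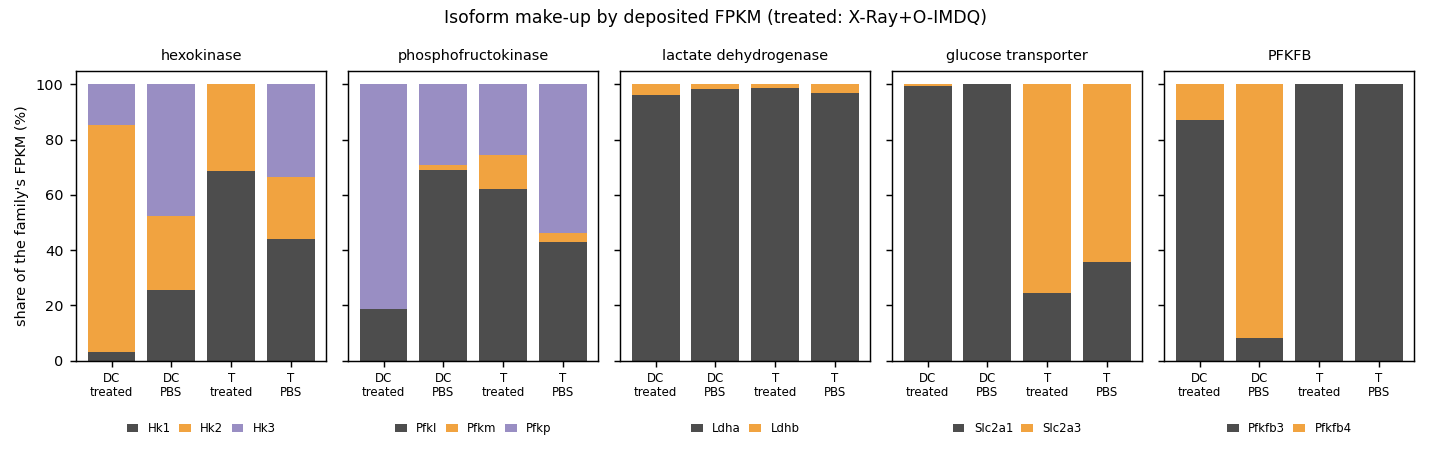
Share of each isoform in the summed FPKM of its family (per cent), for hexokinase, phosphofructokinase, lactate dehydrogenase, glucose transporters and the PFKFB enzymes, with 1 bar per library. In treated DCs Hk2 fills 82.2% of the hexokinase bar, Pfkp 81.3% of the phosphofructokinase bar and Pfkfb3 87.0% of the PFKFB bar, against 26.8%, 29.1% and 8.16% in PBS DCs.

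The regulators of glycolysis in DCs changed in both directions and by large factors. Pfkfb3, which makes the sugar bisphosphate that activates phosphofructokinase, had 85.6 CPM in treated DCs and 4.93 CPM in PBS DCs. It was 17.4-fold higher (log2 ratio 4.12, counting interval 3.82 to 4.43). Pfkfb4, its relative, went the opposite way with 8.25 CPM in treated DCs and 35.8 CPM in PBS DCs and was 4.33-fold lower, so Pfkfb3 made up 87.0% of their summed FPKM in treated DCs and 8.16% in PBS DCs. Pdk1, the kinase that shuts pyruvate dehydrogenase and so diverts pyruvate from mitochondrial oxidation, had 22.4 CPM in treated DCs and 1.41 CPM in PBS DCs. It was 15.9-fold higher (log2 ratio 3.99), from 28 counts in PBS DCs.

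Of the 3 transporters tested in DCs, 1 was called. Slc16a3, the lactate exporter MCT4, had 74.3 CPM in treated DCs and 32.8 CPM in PBS DCs and was 2.26-fold higher. Slc2a1, the glucose transporter GLUT1, had 80.9 CPM in treated DCs and 93 CPM in PBS DCs, and Slc16a1, the lactate carrier MCT1, had 4.92 CPM in treated DCs and 4.08 CPM in PBS DCs. The log2 ratios of Slc2a1 and Slc16a1 were -0.20 and 0.27, and neither was called. Slc2a3, the glucose transporter GLUT3, was not tested in DCs, with 9 counts in treated DCs and 0 in PBS DCs.

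Of the HIF genes in DCs, the subunits parted. Hif1a had 424 CPM in treated DCs and 85.7 CPM in PBS DCs and was 4.95-fold higher (log2 ratio 2.31, counting interval 2.23 to 2.39). Arnt, its partner, had 6.23 CPM in treated DCs and 28.3 CPM in PBS DCs and was 4.54-fold lower. The hydroxylases parted too: Egln1, the main oxygen sensor of HIF-1α, had 92.6 CPM in treated DCs and 41.4 CPM in PBS DCs and was 2.24-fold higher. Egln3, a hydroxylase that is itself a HIF target, had 0 counts in treated DCs and 520 counts in PBS DCs. It was 99.3-fold lower with the treated library set to the floor, and its counting interval ended at a log2 ratio of -6.33. The level of HIF-1α protein, which oxygen sets after translation, is not measured by these data.

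The other hypoxia targets did not move as a block. Higd1a (ENSMUSG00000038412, chromosome 9, 121677629 to 121687428 on GRCm39), a hypoxia-induced protein of the inner mitochondrial membrane, had 3308 CPM in treated DCs and 651 CPM in PBS DCs. It was 5.08-fold higher and was the member with the most counts in treated DCs (37673). Ndrg1, a stress-response gene, had 206 CPM in treated DCs and 12.8 CPM in PBS DCs and was 16.2-fold higher. Vegfa, the growth factor for blood vessels, had 91.7 CPM in treated DCs and 15.2 CPM in PBS DCs and was 6.03-fold higher. Ddit4, an inhibitor of mTOR signalling, had 19.8 CPM in treated DCs and 9.76 CPM in PBS DCs, and was 2.03-fold higher (log2 ratio 1.02), a call lost under total-count scaling or the deposited FPKM (0.98 in each) or on the log2(CPM + 1) scale (0.95).

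The 4 targets called lower in treated DCs were Bnip3, Bnip3l, Kdm3a and P4ha2. Bnip3, a receptor that marks mitochondria for removal, had 17.1 CPM in treated DCs and 125 CPM in PBS DCs and was 7.29-fold lower. Its relative Bnip3l had 33.5 CPM in treated DCs and 222 CPM in PBS DCs and was 6.63-fold lower. Kdm3a, a histone demethylase, had 2.19 CPM in treated DCs and 9.16 CPM in PBS DCs and was 4.17-fold lower. P4ha2, a subunit of collagen prolyl hydroxylase, had 18 CPM in treated DCs and 45 CPM in PBS DCs (log2 ratio -1.32), and its call was lost on centring (-0.95). P4ha1, the other catalytic subunit, had 103 CPM in treated DCs and 128 CPM in PBS DCs, and the oxidoreductase Ero1a had 60.8 CPM in treated DCs and 113 CPM in PBS DCs, and neither was called. The 4 targets without a call had log2 ratios between -0.90 and 0.59: the ankyrin-repeat gene Ankrd37, P4ha1, the MYC antagonist Mxi1 and Ero1a, of which Ero1a was called lower (-1.62) when corrected for GC content and length.

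**Figure D3:**
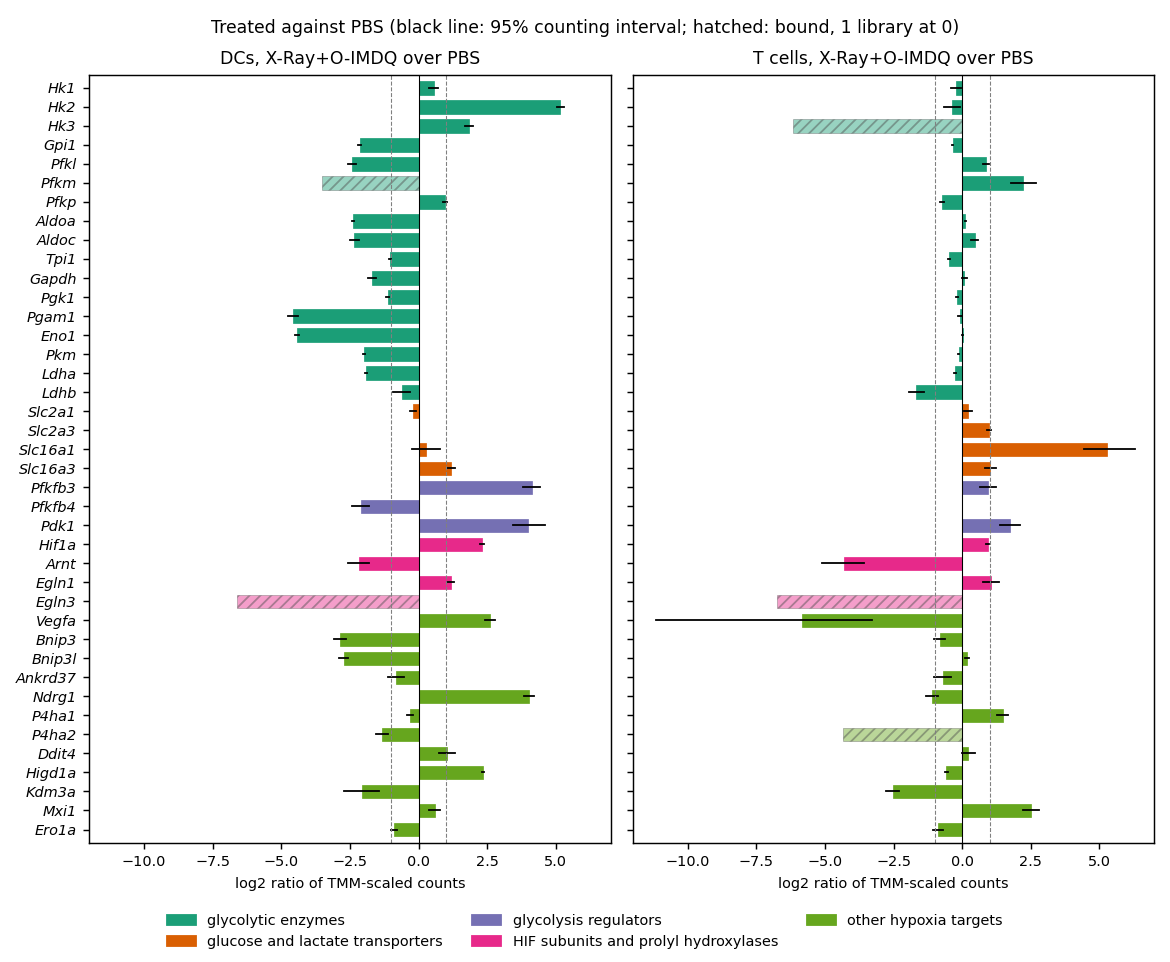
Log2 ratio of TMM-scaled counts, X-Ray+O-IMDQ over PBS, for each member in DCs (left) and T cells (right), with bars coloured by member group and black lines for the counting interval, hatching for bounds where 1 library had 0 counts, dashed lines at 2-fold and no bar for a member not tested. In DCs the enzyme bars from Gpi1 to Ldhb point left except Pfkp, and Hk1, Hk2 and Hk3 point right, while in T cells most enzyme bars are short.

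In T cells the core enzymes were at nearly the same level after either treatment, and 15 members were called. These were 3 enzymes, 2 transporters, 1 regulator, 3 HIF genes and 6 other hypoxia targets. Across all 11058 genes tested in T cells, 18.3% were called higher and 25.4% lower (43.7% in either direction), with a median log2 ratio of -0.07. Of 39 members tested, 7 were higher, 8 lower and 24 neither, with a median of -0.13, close to the background. Among the 17 enzymes 1 was higher, 2 were lower and 14 were neither, with a median of -0.19. Among the 12 other targets 2 were higher and 4 lower (median -0.76), so the enzyme median was 0.58 above that of the other targets.

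The abundant enzymes of T cells stayed well under 2-fold apart. Eno1 had 1735 CPM in treated T cells and 1707 CPM in PBS T cells, a log2 ratio of 0.02 with a counting interval of 0.00 to 0.04. Pgam1 had 155 CPM in treated T cells and 162 CPM in PBS T cells, and its log2 ratio was -0.07. These were the enzymes furthest down in treated DCs among those with counts in both DC libraries. Aldoa had 1799 CPM in treated T cells and 1659 CPM in PBS T cells, Pkm had 1237 CPM in treated T cells and 1354 CPM in PBS T cells, and Ldha had 1168 CPM in treated T cells and 1405 CPM in PBS T cells, with log2 ratios of 0.12, -0.13 and -0.27. Gpi1, Tpi1, Pgk1, Gapdh, Aldoc, Hk1 and Hk2 had log2 ratios between -0.48 and 0.45. Hk2, the member furthest up in treated DCs, had 7.9 CPM in treated T cells and 10.2 CPM in PBS T cells and was not called. Gpi1 had 546 CPM in treated T cells and 697 CPM in PBS T cells, Tpi1 had 321 CPM in treated T cells and 447 CPM in PBS T cells, and Pgk1 had 278 CPM in treated T cells and 316 CPM in PBS T cells.

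In T cells the phosphofructokinase family leaned towards Pfkl and Pfkm after treatment. Pfkm had 10.6 CPM in treated T cells and 2.27 CPM in PBS T cells and was 4.68-fold higher. Pfkl had 108 CPM in treated T cells and 59.5 CPM in PBS T cells (log2 ratio 0.86) and Pfkp had 89.3 CPM in treated T cells and 149.8 CPM in PBS T cells (log2 ratio -0.75), and neither was called at 2-fold. By FPKM, Pfkl made up 62.2% of the family in treated T cells and 42.9% in PBS T cells, and Pfkp 25.6% in treated T cells and 53.8% in PBS T cells. The 2 enzymes called lower were Ldhb and Hk3. Ldhb had 6.4 CPM in treated T cells and 20.4 CPM in PBS T cells (3.19-fold lower). Hk3 had 0 counts in treated T cells and 212 counts in PBS T cells. It was 71.3-fold lower with the treated library set to the floor, and its counting interval ended at a log2 ratio of -5.845. The macrophage marker list summed to 236 CPM in treated T cells and 212 CPM in PBS T cells, and 9 of its 10 genes were tested. Of these 3 were lower, namely Adgre1 (0 counts in treated T cells and 334 in PBS T cells), Csf1r (13 in treated T cells and 28 in PBS T cells) and Mrc1 (192 in treated T cells and 390 in PBS T cells). Fcgr1 was higher (341 counts in treated T cells and 7 in PBS T cells), and Mertk was at 0 in both T libraries. The part of these genes in the Hk3 result was not tested.

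Of the 4 transporters and 2 regulators tested in T cells, 3 were higher and 0 lower. Slc16a1 had 19 CPM in treated T cells and 0.49 CPM in PBS T cells. It was 38.8-fold higher (log2 ratio 5.28, counting interval 4.42 to 6.29), the highest ratio of any member in T cells, resting on 11 counts in PBS T cells. Slc16a1 made up 43.9% of the summed FPKM of the monocarboxylate transporter pair in treated T cells and 3.92% in PBS T cells. Slc16a3 had 29.3 CPM in treated T cells and 14.4 CPM in PBS T cells and was 2.03-fold higher, a call lost with upper-quartile scaling (0.94) and on the log2(CPM + 1) scale (0.97). Slc2a3, the glucose transporter typical of lymphocytes, had 236 CPM in treated T cells and 120.2 CPM in PBS T cells, a log2 ratio of 0.97 just under the threshold, called on centring (1.04) and at a 1.5-fold threshold. Pdk1 had 12 CPM in treated T cells and 3.61 CPM in PBS T cells and was 3.33-fold higher. Pfkfb3 had 13.4 CPM in treated T cells and 6.99 CPM in PBS T cells (log2 ratio 0.94), called on centring (1.01) and at a 1.5-fold threshold, and Pfkfb4 had 0 counts in both T libraries.

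Hif1a in T cells had 324 CPM in treated T cells and 169.9 CPM in PBS T cells, a log2 ratio of 0.93 that was called on centring (1.0) and at a 1.5-fold threshold. Arnt had 0.706 CPM in treated T cells and 13.8 CPM in PBS T cells and was 19.6-fold lower, on 16 counts in treated T cells. Egln1 had 13.1 CPM in treated T cells and 6.37 CPM in PBS T cells and was 2.05-fold higher, and this call at 2-fold was lost under 4 settings, with values of 0.93 to 0.99. Egln3 was at 0 counts in treated T cells and 319 counts in PBS T cells. It was 107-fold lower with the treated library set to the floor, and its counting interval ended at a log2 ratio of -6.44. Egln3 was thus at 0 in both treated libraries and present in both PBS libraries. Of 8606 genes with at least 100 counts in PBS T cells, 342 (3.97%) were at 0 in treated T cells. In the other direction it was 104 of 8219 genes (1.265%). In DCs the share at 0 after treatment was 12%.

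Among the other targets of T cells, Mxi1 had 31.4 CPM in treated T cells and 5.52 CPM in PBS T cells and was 5.69-fold higher, and P4ha1 had 34.3 CPM in treated T cells and 12.3 CPM in PBS T cells and was 2.79-fold higher. Kdm3a had 8.47 CPM in treated T cells and 49 CPM in PBS T cells and was 5.78-fold lower, and Ndrg1 had 9.93 CPM in treated T cells and 21.3 CPM in PBS T cells and was 2.14-fold lower. P4ha2 had 0 counts in treated T cells and 61 counts in PBS T cells. It was 20.5-fold lower with the treated library set to the floor, and its counting interval ended at a log2 ratio of -4.02. Vegfa had 1 count in treated T cells and 56 counts in PBS T cells, a log2 ratio of -5.82 with a wide counting interval of -11.15 to -3.28. Higd1a had 303 CPM in treated T cells and 451 CPM in PBS T cells, a log2 ratio of -0.57 that was not called. The remaining 5, Bnip3, Bnip3l, Ankrd37, Ddit4 and Ero1a, had log2 ratios between -0.89 and 0.22. Of 5 fibroblast markers tested in T cells 3 were lower and 2, Col3a1 and Dcn, were not called. The lower ones were Col1a1 (39 counts in treated T cells and 450 in PBS T cells), Col1a2 (3 in treated T cells and 414 in PBS T cells) and Pdgfrb (0 in treated T cells and 27 in PBS T cells). The part of these markers in the P4ha2 and Vegfa results was not tested.

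Set side by side, members shared calls between DCs and T cells at rates near those of all genes. Over the 38 members with a ratio in both cell types, Pearson's r was 0.15 and Spearman's rho 0.09, given as a description across genes, which are not independent. Slc16a3, Pdk1 and Egln1 were higher in both cell types, and Arnt, Egln3, P4ha2 and Kdm3a lower in both. Hk3, Vegfa and Ndrg1 were higher in treated DCs and lower in treated T cells, and Pfkm was the reverse. Another 13 members were lower in treated DCs and called in neither direction in T cells, and 11 of these were enzymes: Gpi1, Pfkl, Aldoa, Aldoc, Tpi1, Gapdh, Pgk1, Pgam1, Eno1, Pkm and Ldha. Of the 38 members tested in both cell types these 13 are 34.2%, and the 11 enzymes are 64.7% of the 17 enzymes tested in both, where 25% of the 9388 genes tested in both cell types had that pair of calls. Of the same 9388 genes 5.41% were higher in both, 9.38% lower in both, 7.35% higher in DCs and lower in T cells, and 6.76% the reverse. Among the 38 members these shares were, in the same order, 7.9%, 10.5%, 7.9% and 2.63%. With 1 library per group, the difference between the responses was not tested.

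**Figure D4:**
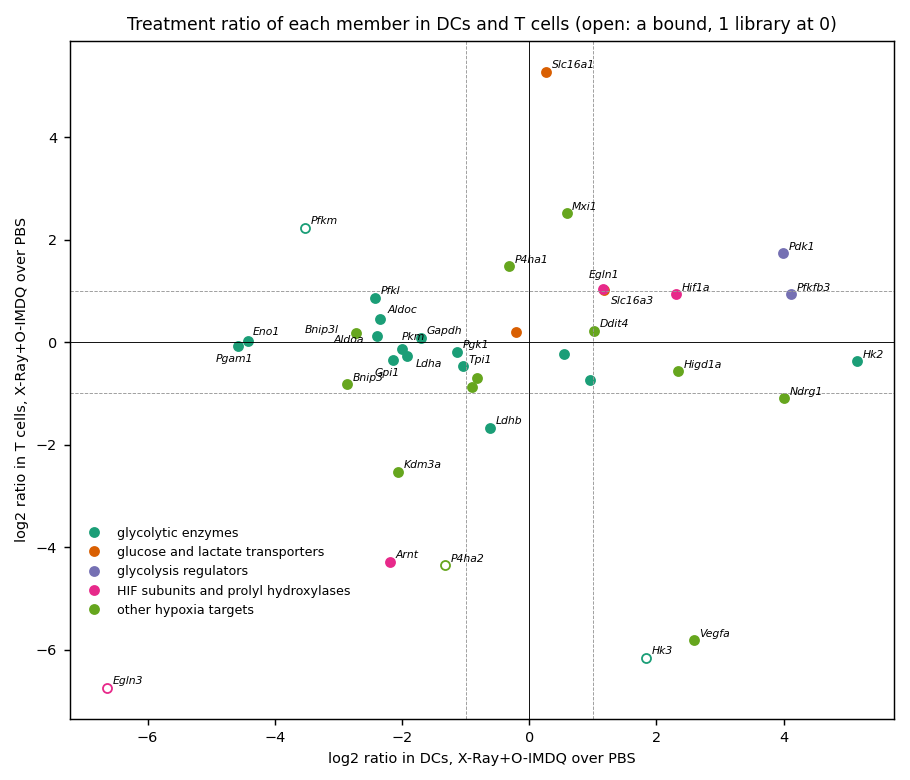
Log2 ratio of X-Ray+O-IMDQ over PBS in DCs (horizontal) against T cells (vertical) for the 38 members with both, coloured by member group, with dashed lines at 2-fold and open points for bounds, where 1 library of a pair had 0 counts. Most enzymes lie left of the centre at a height near 0, Hk2, Pdk1 and Pfkfb3 lie far to the right, and Egln3 lies in the lower left corner.

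The level of these genes in DCs was also set against that in T cells within each treatment. After X-Ray+O-IMDQ, 15 of 39 members were higher in DCs than in T cells and 10 lower, where 30.5% of all 10606 genes tested were higher and 43.9% lower (74.4% in either direction). After PBS, 22 of 40 members were higher in DCs and 3 lower (Slc2a3, Pdk1 and Kdm3a), where 25.6% of all 11364 genes tested were higher and 34.8% lower (60.3% in either direction). Scaling between cell types matters for these counts: with total counts the split after X-Ray+O-IMDQ turned over to 12 higher and 14 lower among members, and to 2593 higher and 5399 lower among all genes, against 3240 higher and 4651 lower with TMM. The PBS split with total counts was 14 higher and 6 lower among members, and 2171 higher and 4979 lower among all genes, against 2906 higher and 3949 lower with TMM. Among the 17 enzymes tested, 3 were higher in DCs and 6 lower after X-Ray+O-IMDQ, and 9 were higher and 0 lower after PBS. Slc2a3 separated the cell types under either treatment, at 0.790 CPM in treated DCs and 236 CPM in treated T cells, and at 0 counts in PBS DCs and 2699 counts in PBS T cells. Hk2 had 874 CPM in treated DCs and 7.90 CPM in treated T cells (111-fold higher in DCs), and 24.6 CPM in PBS DCs and 10.2 CPM in PBS T cells (2.4-fold higher in DCs). Eno1 had 148 CPM in treated DCs and 1735 CPM in treated T cells (11.7-fold lower in DCs), and 3181 CPM in PBS DCs and 1707 CPM in PBS T cells, which was not called.

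Genes next to the members in the same pathways were read from further lists. Of 13 other glycolysis and gluconeogenesis genes tested in DCs, 2 were higher (15.4%) and 8 lower (61.5%), where 30% and 42% of all genes were. Their median log2 ratio was -2.04, close to that of the enzymes. In T cells 3 of 14 were higher (21.4%) and 2 lower (14.3%), where 18.3% and 25.4% of all genes were. The median in T cells was 0.19. Eno3, the muscle enolase, had 38.1 CPM in treated DCs and 156 CPM in PBS DCs (4.1-fold lower), and 27.8 CPM in treated T cells and 71.5 CPM in PBS T cells (2.58-fold lower). Pgm1, which links glycogen to glucose 6-phosphate, had 11.8 CPM in treated DCs and 84.4 CPM in PBS DCs (7.12-fold lower). Gpd2, the mitochondrial glycerol phosphate dehydrogenase, had 119 CPM in treated DCs and 63.2 CPM in PBS DCs, a log2 ratio of 0.91 that was not called. The furthest apart in DCs were Galm, the galactose mutarotase, with 226 counts in treated DCs and 47 counts in PBS DCs, and Gpd1l with 1 count in treated DCs and 145 counts in PBS DCs. In T cells the gluconeogenic phosphatase Fbp1 had 209 counts after treatment and 0 after PBS, and Pfkfb1, a relative of Pfkfb3, had 41 counts in treated T cells and 146 counts in PBS T cells (3.59-fold lower).

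Of 11 further regulators of the HIF pathway tested in DCs, 5 were higher and 3 lower (median 0.30). That is 45.5% and 27.3%, where 30% and 42% of all genes were. In T cells 1 of 12 was higher and 2 lower (median -0.52). That is 8.33% and 16.7%, where 18.3% and 25.4% of all genes were. The 3 with the most counts are parts of the ubiquitin ligase that recognises hydroxylated HIF-1α. Elob had 5536 CPM in treated DCs and 812 CPM in PBS DCs (6.82-fold higher), Rbx1 had 3044 CPM in treated DCs and 543 CPM in PBS DCs (5.6-fold higher) and Eloc had 1241 CPM in treated DCs and 219 CPM in PBS DCs (5.67-fold higher). In T cells the log2 ratios of these 3 genes were -0.75, -0.59 and -0.72, and none was called. Vhl, the subunit that binds HIF-1α, had 152 counts in treated DCs and 547 counts in PBS DCs (2.06-fold lower), and 1223 counts in treated T cells and 573 counts in PBS T cells (2.12-fold higher). Egln2, the remaining prolyl hydroxylase, had 93 counts in treated DCs and 552 counts in PBS DCs (3.4-fold lower). Siah1a, a ubiquitin ligase that acts on prolyl hydroxylases, had 1 count in treated T cells and 150 counts in PBS T cells, with a counting interval of its log2 ratio from -12.55 to -4.74.

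Of 26 further hypoxia targets tested in DCs, 9 were higher and 8 lower (median 0.55). That is 34.6% and 30.8%, where 30% and 42% of all genes were. In T cells 6 of 31 were higher and 11 lower (median -0.11). That is 19.35% and 35.5%, where 18.3% and 25.4% of all genes were. Cdkn1a, the cell cycle inhibitor p21 that is also a target of p53, parted between the cell types. It had 540.2 CPM in treated DCs and 1330 CPM in PBS DCs (2.46-fold lower), and 472 CPM in treated T cells and 76.8 CPM in PBS T cells (6.15-fold higher). Mif, a cytokine, had 562 CPM in treated DCs and 1167 CPM in PBS DCs (2.08-fold lower), and Bhlhe40, a transcription factor, had 432 CPM in treated DCs and 225 CPM in PBS DCs (log2 ratio 0.94, not called). Car9, the carbonic anhydrase often used as a marker of hypoxia, had 1 count in treated DCs and 313 counts in PBS DCs, with a counting interval of its log2 ratio from -12.80 to -5.00. Loxl2, a lysyl oxidase relative, had 273 counts in treated DCs and 1 count in PBS DCs, and 1 count in treated T cells and 168 counts in PBS T cells. Its log2 ratio had a counting interval from 6.41 to 14.20 in DCs and from -12.72 to -4.91 in T cells. The part of the fibroblast markers that were lower in treated T cells in the Loxl2 result was not tested. Nos2, the inducible nitric oxide synthase, had 68 counts in treated T cells and 0 in PBS T cells, 22.5-fold higher with the PBS library set to the floor.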

How the data were processed

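The 4 libraries hold RNA of tumour DCs and CD3+ T cells. RNA extraction, library construction and sequencing were done at BGI, per the labels. Genome build GRCm39 and the tools R 3.3.1, DESeq2 1.24.0, RSEM 1.2.12 and HISAT2 2.0.4 are named in the submitters' processing notes without their roles. Each deposited table gives raw read counts per gene in whole numbers, per the file headers. They also hold FPKM, which the authors scaled to the listed gene length and the counted reads of each library, and each FPKM was checked to follow from its count within a relative difference of 2.04e-07. Columns were matched to samples by the library numbers in the sample descriptions, although the titles number the PBS samples 2 and the descriptions 1. A further 2 libraries, in 4 columns, were not used. Their names have the PBS form with number 2, 1 library in each cell type, so they match the numbers of the PBS titles but no description. Of the 21959 genes 51 have no symbol and were left out of tests. The symbol Aldoa has 2 rows, and the row with counts was used.

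Counts were scaled over the 4 libraries with TMM (edgeR 4.0.16 in R 4.3.3), with factors of 0.810 and 0.835 for treated and PBS DCs and 1.227 and 1.204 for treated and PBS T cells. Ratios and exact intervals were computed in Python 3.11.15 with scipy 1.17.1. Where a library had 0 counts, 3 counts were assumed, and members at 0 in 1 library enter medians at that bound. Replicate error cannot be estimated with 1 library per group. The method was tested on simulated data with counting error only, which does not cover variation between animals or libraries. Members, lists and tests were chosen with earlier results of these data known. Values by library are given for members that were called or had at least 1000 counts in any library, and for further lists for the 3 genes with the most counts over the 4 libraries and, in each cell type, the called gene furthest apart in each direction. Alternatives were total-count CPM, DESeq2 1.42.0 size factors, upper-quartile scaling, deposited FPKM, centring on the median gene, minimum counts of 1 and 100 in either library or 20 in both, log2(CPM + 1), thresholds of 1.5-fold and 4-fold, near copies added and a gene length correction. A correction for GC content (GENCODE M21 transcripts, matched for 99.7% of genes) and length was added after seeing the data. Promoter windows are those of RefSeq on GRCm38.p6, while gene positions are those listed in the tables, and the builds were not mixed.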

Additional observations from a re-analysis of the deposited data

Results flagged for a closer look

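The following 4 members were called in opposite directions in DCs and T cells under the same contrast, X-Ray+O-IMDQ over PBS. Of the 38 members tested in both cell types, 7.9% were higher in DCs and lower in T cells and 2.63% the reverse. Among all 9388 genes tested in both, the shares were 7.35% and 6.76%, so opposite calls were not more frequent among the members. With 1 library per group the difference between cell types was not tested. Hk3 had a log2 ratio of 1.83 in DCs and -6.16 in T cells, where the treated library was at 0 counts and the value is a bound. Pfkm had a log2 ratio of -3.52 in DCs, where the treated library was at 0 counts and the value is a bound, and 2.23 in T cells. Vegfa had a log2 ratio of 2.59 in DCs and -5.82 in T cells, where it rests on 1 count in the treated library. Ndrg1 had a log2 ratio of 4.01 in DCs and -1.10 in T cells, with at least 225 counts in every library.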

How the results depend on the processing

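Among the 39 members tested in DCs, between 27 and 30 of the 30 calls were kept under the 9 alternatives of scaling, pseudocount, copies, length and GC content that compare all of them and under a minimum of 1 count, and Tpi1 reversed, at 0.054 against -1.04, with the correction for GC content and length. In T cells 13 to 15 of 15 calls were kept under the same alternatives and none reversed. The enzyme median in DCs ranged from -1.97 to -1.23 over the alternatives. With a 4-fold threshold 7 members were higher in DCs (11 at 2-fold) and 3 in T cells (7 at 2-fold), and 1 enzyme was lower in T cells (2 at 2-fold). With a 1.5-fold threshold 11 members were higher in T cells, the added ones being Pfkl, Slc2a3, Pfkfb3 and Hif1a. With 20 counts required in both libraries 3 members and 1 enzyme were lower in T cells, against 8 and 2, because genes at or near 0 in 1 library drop out. With the correction for GC content and length, the enzyme median minus that of the other targets in DCs was -0.90 against -1.36. With total counts, 14 members were higher and 6 lower in PBS DCs against PBS T cells, where TMM gave 22 and 3, and 12 were higher and 14 lower in treated DCs against treated T cells, where TMM gave 15 and 10. The cause of these changes with scaling or GC content was not tested. No paired analysis was possible because each group has 1 library. The sample titles number the treated samples 1 and the PBS samples 2, and the library numbers in the descriptions coincide in T cells alone, at 1, which allows no block. Leaving out a replicate would leave a group with no library and was not run. Depth limits Slc16a1, Vegfa, Arnt, Kdm3a and Pdk1, each with under 30 counts in 1 library of a pair, and a count of 0 does not show that a transcript is absent.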

Other observations

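Branches off glycolysis were read from further lists in the same way. Of 8 pentose phosphate genes tested in DCs, 1 was higher (12.5%) and 5 lower (62.5%), where 30% and 42% of all genes were. Their median log2 ratio was -1.52. In T cells 1 of 8 was higher and 1 lower (12.5% each), where 18.3% and 25.4% of all genes were. The median in T cells was 0.19. G6pdx, the enzyme of entry into this branch, was the higher gene in both cell types, with 639 counts in treated DCs and 158 counts in PBS DCs (7.06-fold higher), and 725 counts in treated T cells and 23 counts in PBS T cells (31.2-fold higher). Taldo1, a later enzyme, had 190.4 CPM in treated DCs and 656 CPM in PBS DCs (3.45-fold lower), and Tkt, its partner, had 402 CPM in treated DCs and 204 CPM in PBS DCs (log2 ratio 0.98, not called). Pgls, the lactonase of the branch, had 29.3 CPM in treated DCs and 77.2 CPM in PBS DCs (2.63-fold lower). Rpe, the epimerase, had 0 counts in treated DCs and 646 counts in PBS DCs, 123-fold lower with the treated library set to the floor. Rpe was not called in T cells. Rpia, the isomerase, had 5 counts in treated T cells and 187 counts in PBS T cells (37.7-fold lower).

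Of 11 genes of pyruvate dehydrogenase and the pyruvate carriers tested in DCs, 2 were higher and 6 lower (median -1.01). That is 18.2% and 54.55%, where 30% and 42% of all genes were. In T cells 2 of 12 were higher and 2 lower (median 0.26). That is 16.7% each, where 18.3% and 25.4% of all genes were. Bsg, the chaperone of the lactate transporters, had 224 CPM in treated DCs and 2115 CPM in PBS DCs (9.45-fold lower), and 1074 CPM in treated T cells and 921 CPM in PBS T cells (log2 ratio 0.22, not called). Pdhb, a subunit of the dehydrogenase itself, had 78.5 CPM in treated DCs and 224 CPM in PBS DCs (2.85-fold lower). Mpc2, a subunit of the mitochondrial pyruvate carrier, had 166 CPM in treated DCs and 179 CPM in PBS DCs (log2 ratio -0.11, not called). Pdhx, a structural component of the dehydrogenase complex, had 0 counts in treated DCs and 975 counts in PBS DCs. It was 186-fold lower with the treated library set to the floor. Pdp2, a phosphatase that reactivates the complex, had 44 counts in treated DCs and 1 count in PBS DCs (counting interval of the log2 ratio 3.71 to 11.60), and 411 counts in treated T cells and 173 counts in PBS T cells (2.35-fold higher). Pdk2, a kinase that acts against it, had 0 counts in treated T cells and 113 counts in PBS T cells, 38-fold lower with the treated library set to the floor.

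Of 7 glycogen genes tested in DCs, 3 were higher and 1 lower (median 0.27). That is 42.9% and 14.3%, where 30% and 42% of all genes were. In T cells 3 of 8 were higher and 3 lower (median -0.24). That is 37.5% each, where 18.3% and 25.4% of all genes were. Gys1, glycogen synthase, was higher in both cell types, with 235 CPM in treated DCs and 31.7 CPM in PBS DCs (7.41-fold higher), and 79 counts in treated T cells and 19 counts in PBS T cells (4.12-fold higher). Pygb, a glycogen phosphorylase, had 7 counts in treated DCs and 94 counts in PBS DCs (7.7-fold lower). Ugp2, which makes UDP-glucose, was called in neither cell type. Pygl, the liver phosphorylase, had 515 counts in treated DCs and 1169 counts in PBS DCs (log2 ratio -0.38, not called), and 64 counts in treated T cells and 1 count in PBS T cells (counting interval of the log2 ratio 3.46 to 11.31). Ppp1r3b, which targets a phosphatase to glycogen, had 20 counts in treated T cells and 283 counts in PBS T cells (14.3-fold lower).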
